A study of Rattus norvegicus with 4 samples.

Results

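The genes described here are 34 interferon response genes, chosen by name. They were grouped as 17 type I-type members (after type I interferon), 5 shared between the pathways and 12 gamma-type members (after interferon gamma). The grouping is a label, and which interferon a member answers was not tested here. Of the 34 genes, 33 were found by symbol among the 30560 genes of the deposited tables (16 type I-type, 5 shared and 12 gamma-type), and Ifit1 matched no symbol. They were followed in single-cell RNA-seq of Rattus norvegicus, in 2 libraries of skin and 2 libraries of the subcutaneous fascia, taken at the midline of the abdomen. Both groups are labelled wild type (WT), and no strain, age, sex or treatment is given. Tissue was minced and digested with collagenase type 4, elastase and DNase I, strained, and freed of red cells and dead cells before droplet capture. Transcripts were counted at their 3′ ends by unique molecular identifiers (UMIs), so levels need no division by gene length. The study set out to compare the cells that make up skin and fascia. Nothing in the labels says that the libraries of a tissue came from separate animals, so p-values measure only the spread between these libraries, which may be technical.

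Cells answer interferons through surface receptors and Janus kinases. Type I interferons signal through IFNAR1 and IFNAR2, which assemble the ISGF3 complex, with STAT2 and IRF9 among its subunits, on the interferon-stimulated response element (ISRE). Interferon gamma signals through IFNGR1 and IFNGR2, whose targets often carry the gamma-activated site (GAS). Type I-type members include antiviral effectors such as the IFIT, MX and OAS proteins, the virion-tethering factor Bst2 and the transcription factor Irf7. Gamma-type members include the transcription factor Irf1, the guanylate-binding proteins, the chemokines Cxcl9, Cxcl10 and Cxcl11, and the machinery of antigen presentation (Psmb8, Psmb9, Tap1, Tap2 and B2m).

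Promoter sequence was read from RefSeq on build GRCr8 for the 29 members with an entry, matched by symbol. A window of 300 bases (250 before to 50 after the gene's start) was searched on both strands for an ISRE-like motif, the letters GAAA, any 2 bases and GAAA again, and a GAS-like motif, TTCNNNGAA, with overlapping matches kept. The ISRE-like motif was in 17 of 29 windows (58.6%), beside 3.92% of all 33469 promoters of the same length. The GAS-like motif was in 9 of 29 (31.03%), beside 8.87% of all. By type, the ISRE-like motif was in 8 of 12 type I-type, 2 of 5 shared and 7 of 12 gamma-type windows, and the GAS-like motif in 2 of 12, 2 of 5 and 5 of 12. A match describes the letters and is not a binding site. The 250 bases before the start are shown for 7 members whose levels are followed most closely below, and capitals mark the motif matches.
Irf7, chr1:205800024-205800273 (minus strand): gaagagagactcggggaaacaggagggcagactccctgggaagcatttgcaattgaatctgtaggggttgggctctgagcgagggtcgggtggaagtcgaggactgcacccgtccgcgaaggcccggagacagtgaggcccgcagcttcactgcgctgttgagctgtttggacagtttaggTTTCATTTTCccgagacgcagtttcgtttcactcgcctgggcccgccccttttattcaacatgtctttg
Oas1a, chr12:41330216-41330465 (plus strand): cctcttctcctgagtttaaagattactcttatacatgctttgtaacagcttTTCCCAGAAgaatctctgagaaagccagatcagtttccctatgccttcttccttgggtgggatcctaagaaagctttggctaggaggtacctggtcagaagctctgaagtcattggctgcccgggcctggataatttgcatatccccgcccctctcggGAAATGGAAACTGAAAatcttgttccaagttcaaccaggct
Bst2, chr16:18254968-18255217 (minus strand): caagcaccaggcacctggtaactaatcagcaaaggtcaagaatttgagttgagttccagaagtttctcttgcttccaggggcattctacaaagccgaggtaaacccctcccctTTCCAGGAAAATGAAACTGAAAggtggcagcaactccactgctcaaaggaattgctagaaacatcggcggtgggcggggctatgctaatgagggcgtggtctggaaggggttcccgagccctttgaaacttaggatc
Ifit3, chr1:241527076-241527325 (plus strand): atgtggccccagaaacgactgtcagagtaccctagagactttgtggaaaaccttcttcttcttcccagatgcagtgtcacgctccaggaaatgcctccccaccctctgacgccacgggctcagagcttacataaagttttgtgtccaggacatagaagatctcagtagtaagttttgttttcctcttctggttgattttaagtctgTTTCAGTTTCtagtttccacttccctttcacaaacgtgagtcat
Gbp2, chr2:234005477-234005726 (plus strand): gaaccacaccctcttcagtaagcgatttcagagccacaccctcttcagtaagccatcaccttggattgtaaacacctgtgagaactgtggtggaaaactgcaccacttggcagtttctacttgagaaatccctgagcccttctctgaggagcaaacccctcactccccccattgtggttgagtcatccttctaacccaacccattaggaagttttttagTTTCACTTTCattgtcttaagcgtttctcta
Irf1, chr10:38417685-38417934 (plus strand): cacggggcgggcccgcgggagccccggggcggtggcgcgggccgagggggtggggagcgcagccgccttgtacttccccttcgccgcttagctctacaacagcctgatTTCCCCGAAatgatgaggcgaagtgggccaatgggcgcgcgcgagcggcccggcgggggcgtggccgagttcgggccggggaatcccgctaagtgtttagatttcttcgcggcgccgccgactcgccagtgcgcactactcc
Cxcl10, chr14:15988816-15989065 (plus strand): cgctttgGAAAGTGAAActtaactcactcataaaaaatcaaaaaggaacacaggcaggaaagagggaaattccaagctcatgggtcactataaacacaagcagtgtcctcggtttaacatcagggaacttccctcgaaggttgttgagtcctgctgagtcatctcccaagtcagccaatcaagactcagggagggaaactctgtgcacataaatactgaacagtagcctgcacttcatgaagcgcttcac
Positions are counted back from the start of the gene. In Oas1a an ISRE-like match from base -41 overlapped another from base -35, and a GAS-like match lay at base -199. In Bst2 overlapping ISRE-like matches lay at bases -131 and -125, with a GAS-like match at base -137. Irf7, Ifit3 and Gbp2 held 1 ISRE-like match each, at bases -69, -44 and -31. Irf1 held only a GAS-like match, at base -142, and Cxcl10 only an ISRE-like match, at base -243.

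The libraries held 83852172 to 95777810 UMIs. After filtering, 7015 and 14279 skin cells and 6595 and 6794 fascia cells were kept, with median UMIs per cell of 8859 and 2457 in skin and 12677 and 10321.5 in fascia. Pairs of libraries shared 16 to 26 cell barcodes. Cells were put into classes by markers that include no interferon response gene, and cells that scored for more than 1 class were left out. Classes with at least 20 cells in every library were fibroblasts (420 and 543 skin cells, 2751 and 739 fascia cells), blood endothelial cells (195 and 146, then 541 and 896), mural cells of the vessel wall (72 and 263, then 1180 and 1909), macrophages or monocytes (45 and 26, then 1235 and 1154) and T or NK lymphocytes (32 and 80, then 229 and 546). Each had its own markers, and no marker of another class, among its 10 leading genes. A class was compared as its summed UMIs per library, where fewer positive cells and less RNA per cell cannot be told apart. Levels are CPM, UMIs of a gene per 1000000 UMIs of the class in that library, given as skin 1 and skin 2, then fascia 1 and fascia 2. Changes are log2 values of fascia against skin ± standard error from edgeR's quasi-likelihood test, and p-values were adjusted by Benjamini-Hochberg over all genes tested; a member was called at an adjusted p under 0.05. Shares of all genes are by edgeR at that threshold. Counts of members at an unadjusted p or by another tool (DESeq2) have no such share beside them. Those counts cannot be read as particular to the members. The TMM scaling of edgeR shifted all changes of a class by -0.02 (lymphocytes) to -0.44 (blood endothelial cells) against plain CPM. Between these scalings the direction turned for 10 of 30 members in blood endothelial cells, 5 of 28 in mural cells and 1 to 3 in each other class, in no case for a called member.

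**Figure D1:**
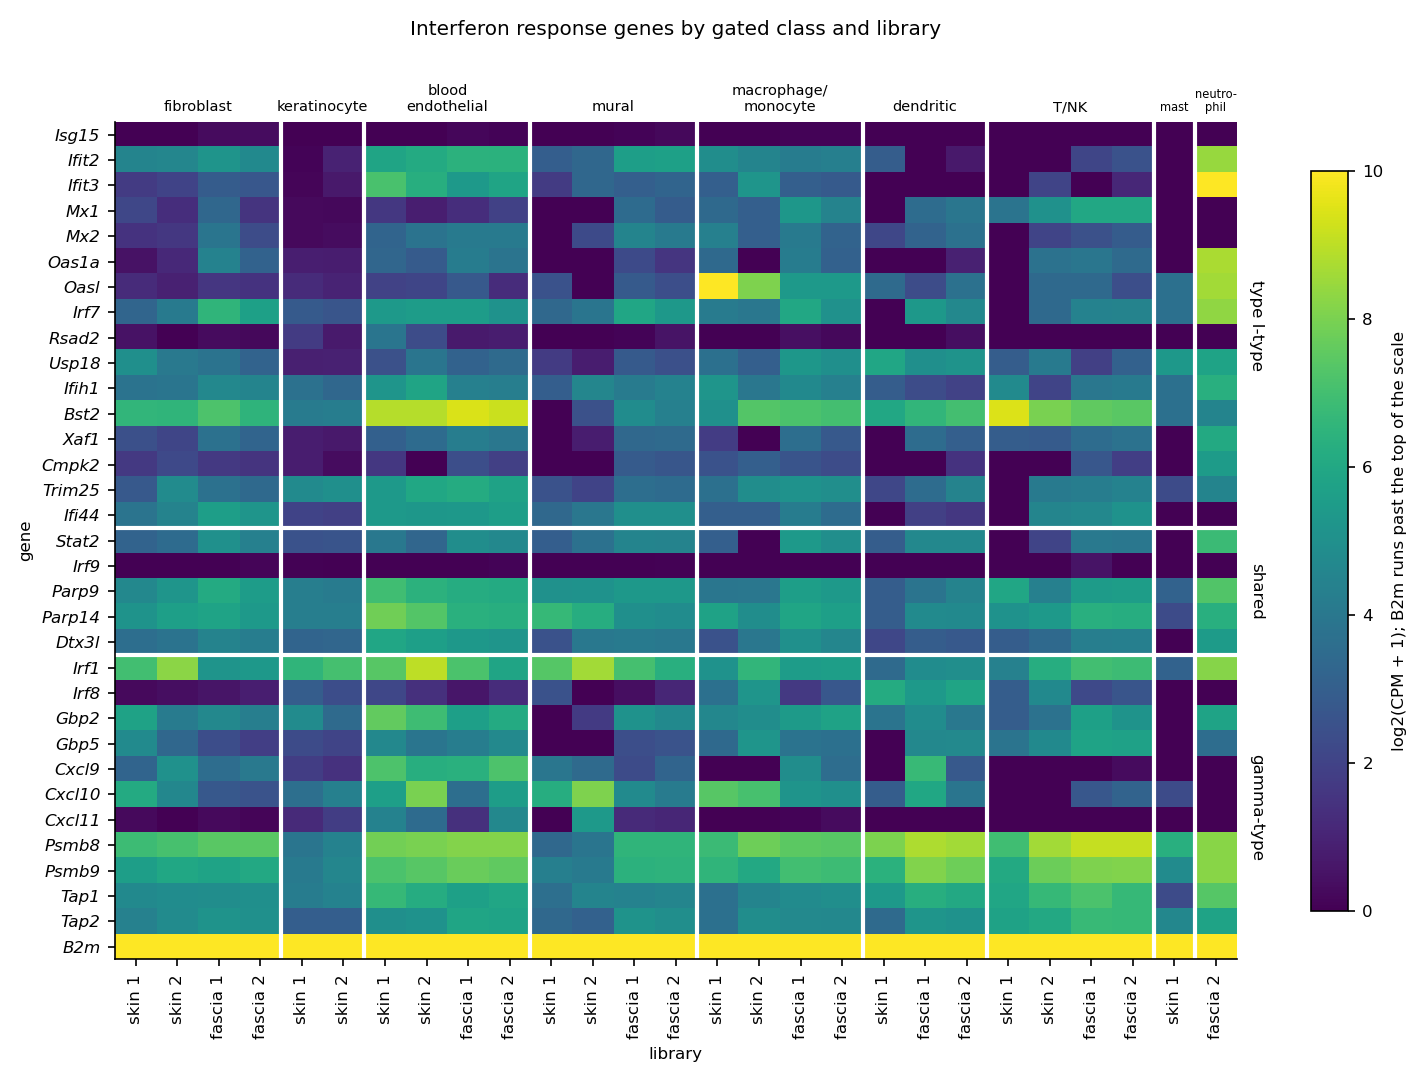
Level of the 33 matched members, as log2(CPM + 1), in each gated class and library with at least 20 cells; rows are genes grouped by type and columns are libraries grouped by class. Blood endothelial cells are bright for Bst2, Parp14 and Gbp2, skin macrophages for Oasl and the neutrophils of fascia 2 for Ifit3, while Isg15 and Irf9 are dark throughout.

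Isg15, a ubiquitin-like modifier of the type I response, was close to undetected. It had 22 UMIs in all kept cells, and its level was at most 0.264 CPM in any class and library. Irf9, the DNA-binding subunit of ISGF3, had 9 UMIs and Rsad2, the antiviral enzyme viperin, 292. By contrast Bst2 had 36041, Irf1 30527, Psmb8 38663 and B2m 852778. No comparison of Isg15 or Irf9 was possible at these counts, and whether the counts reflect the RNA of the cells or the gene annotation used for counting was not tested.

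Among classes with at least 20 cells in both libraries of a tissue, blood endothelial cells had the highest mean level of 18 of 33 members in skin and 14 in fascia, while T or NK lymphocytes had that of 5 and 9. The blood endothelial libraries overlapped the next class for Oas1a, Stat2, Irf1, Psmb9 and Tap1 in skin. In fascia they did so for Oas1a, Ifi44, Parp14, Gbp2 and Cxcl9. How often this class is highest over all genes was not counted. With classes that reached 20 cells in 1 library only, blood endothelial cells were highest for 18 members in skin and 8 in fascia, where the neutrophils of fascia 2 were highest for 15. The classes were also compared in 1 fit over both tissues, with the library as a block. There 13 of 30 members tested were higher in blood endothelial cells than in fibroblasts and 0 were lower by edgeR. Of all genes 35.0% differed and 16.5% were higher. DESeq2 called 16 members higher and 0 lower, without a share of all genes beside it. Ifit3, an RNA-binding antiviral effector, was 3.92 ± 0.50 log2 higher (adjusted p = 8.31e-06) and Bst2 2.34 ± 0.52 (adjusted p = 0.00173). Trim25, the ubiquitin ligase that activates the RNA sensor RIG-I, was 2.11 ± 0.37 log2 higher, and the chemokines Cxcl9 and Cxcl11 2.85 ± 0.57 and 5.64 ± 1.12. Fibroblasts held 1 UMI of Cxcl11 in skin and 9 in fascia, so its change has no firm size.

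Bst2 in fascia shows the order of the classes. Its level in the fascia libraries was 696 and 590.3 CPM in blood endothelial cells, 187 and 171 in lymphocytes, 145 and 127 in macrophages, 146 and 90.9 in fibroblasts and 28.2 and 19.5 in mural cells. Blood endothelial cells stood clear of the other classes, macrophages and fibroblasts overlapped, and mural cells were lowest. In skin the lymphocyte libraries, at 712 and 253 CPM, spanned the blood endothelial ones at 472 and 477.

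Mural cells had 6 of 30 members below fibroblasts and 1, Cxcl11, above, where 30.7% of all genes differed. The Cxcl11 call rests on the same few UMIs in fibroblasts. It was lost with Leiden clusters in place of gates and on the fascia libraries alone. Bst2 changed by -3.06 ± 0.55, Psmb8, a catalytic subunit of the immunoproteasome, by -1.90 ± 0.47 and B2m, the light chain of MHC class I, by -1.38 ± 0.25. Macrophages had 5 members above fibroblasts and 1, Ifi44, below, where 39.1% of all genes differed. Oasl, a 2′-5′-oligoadenylate synthetase-like protein, was 7.18 ± 0.98 log2 higher and Irf8, a transcription factor of the myeloid lineage, 3.57 ± 0.68. Lymphocytes had 6 members above fibroblasts (Mx1, Irf8, Gbp5, Psmb9, Tap1 and Tap2) and 5 below (Ifit2, Ifit3, Irf7, Stat2 and Cxcl9), where 47.2% of all genes differed and 19.8% were higher. Mx1, a dynamin-like antiviral GTPase, was 3.29 ± 0.55 log2 higher in lymphocytes and Ifit2, a partner of Ifit3, differed by -3.37 ± 0.52. Ifit2 was at 0 and 0, then 3.20 and 4.72 CPM in lymphocytes and Mx1 at 13.3 and 31.99, then 62.6 and 62.1, so type I-type members did not share 1 pattern over classes. Fitted on the fascia libraries alone, 17 members differed in mural cells, 17 in macrophages and 21 in lymphocytes. The share of all genes called in those fits was not taken, so these counts cannot be read as particular to the members.

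In all cells summed, 18 of 31 members tested were higher in fascia and 1, Irf1, was lower, where 19.3% and 18.9% of all genes were. Skin libraries were mostly keratinocytes (5534 and 9107 gated cells against 0 and 2 in fascia), so this sum mixes the make-up of the tissue with the level per cell. The classes were therefore compared one by one, and they did not change alike.

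**Figure D2:**
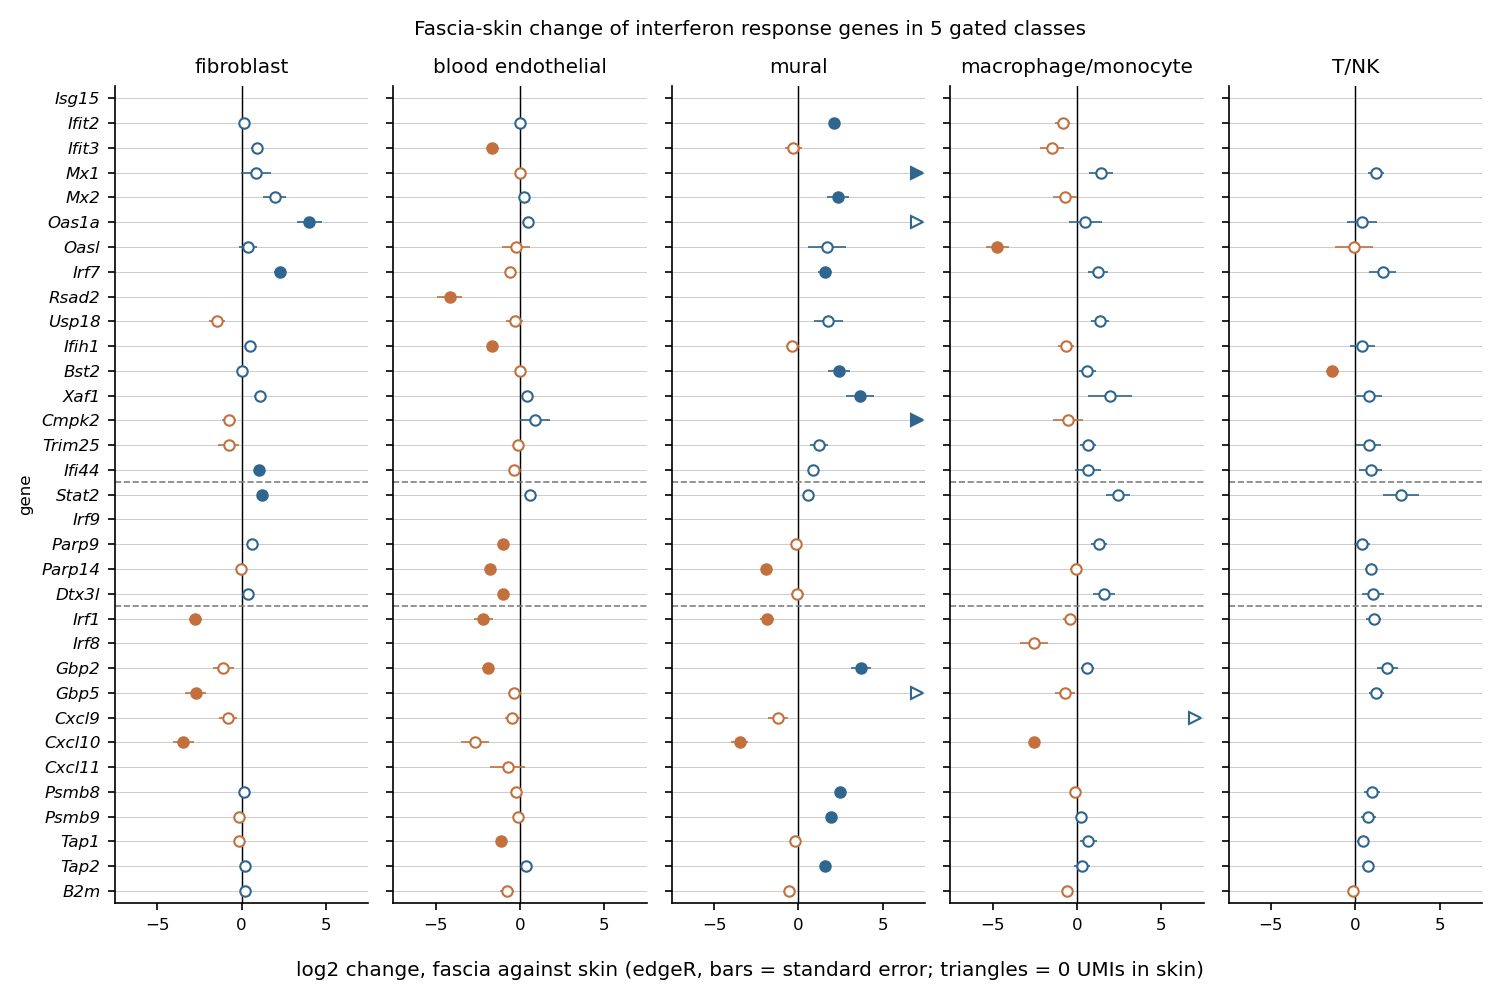
Log2 change of each member in fascia against skin in 5 gated classes, with standard errors; filled symbols have an adjusted p under 0.05, blue lies above 0 and orange below. Mural cells have 11 filled symbols on the right and blood endothelial cells 9 on the left; triangles at the right edge mark members with 0 UMIs in skin, whose change has no size.

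In fibroblasts, 4 of 28 members tested were higher and 3 were lower in fascia, where 7.31% and 12.5% of all genes were (19.8% in all). The 4 higher were type I-type or shared members and the 3 lower were gamma-type members. Irf7, the factor that amplifies the type I response, was at 8.58 and 16.4, then 91.9 and 50.5 CPM (2.28 ± 0.38, adjusted p = 0.0191). Oas1a, which makes the messenger that activates RNase L, was at 0.390 and 1.19, then 20.6 and 7.91 CPM (4.01 ± 0.75, adjusted p = 0.0242). Both fascia libraries lay above both skin libraries for these genes, with fascia 1 the higher. Oas1a rested on 2 UMIs in the fibroblasts of skin 1, near its limit of detection, so its change has no firm size. Ifi44, an interferon-induced antiviral protein, was at 13.3 and 21.2, then 47.9 and 36.3 CPM (1.04 ± 0.23, adjusted p = 0.0377). Stat2, a subunit of ISGF3, was at 8.19 and 10.2, then 31.6 and 19.5 CPM (1.21 ± 0.29, adjusted p = 0.0442). Neither overlapped between the tissues.

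The gamma-type members called in fibroblasts went the other way. Irf1 was at 124 and 305, then 35.6 and 39.1 CPM (-2.75 ± 0.38, adjusted p = 0.0136). Cxcl10, a chemokine that draws T cells through CXCR3, was at 67.9 and 23.6, then 5.68 and 4.92 CPM (-3.46 ± 0.61, adjusted p = 0.0217). Gbp5, a guanylate-binding protein, was at 26.5 and 9.26, then 4.18 and 2.64 CPM (-2.72 ± 0.62, adjusted p = 0.0391). For all 3, both fascia libraries lay below both skin libraries. The abundant members moved less. Bst2 was at 95.4 and 93.5, then 146 and 90.9 CPM (0.04 ± 0.27), Psmb8 at 116 and 136, then 171 and 171 (0.16 ± 0.17) and B2m at 3212 and 2945, then 4316 and 4388 (0.21 ± 0.28), and they did not pass the test. Parp9 and Parp14, ADP-ribosyltransferases of which Parp9 acts with the ubiquitin ligase Dtx3l, were at 24.6 and 36.1, then 68.1 and 45.2 and at 34.3 and 48.4, then 55.1 and 40.5 CPM and did not pass either. The 21 members that did not pass and had UMIs in both tissues ranged in log2 change from -1.45 (Usp18) to 1.95 (Mx2). The median log2 change was 0.67 over the 14 type I-type members tested, -0.48 over the 10 gamma-type ones and 0.04 over all genes tested.

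Other measures differed between the tissues in the same fibroblasts. Genes of the stress response to dissociation (6 of 8 matched, such as Fos and Jun) summed to 8152 to 15588 CPM in skin and 2034 to 3819.7 in fascia. Keratinocyte markers (13 matched, all found in both skin libraries and 6 to 9 in fascia) summed to 372 to 658 and 10.5 to 20.1 CPM, and macrophage markers (12 matched, 9 to 11 found in skin and 12 in fascia) to 18.5 to 26.7 and 80.8 to 84.9 CPM. Neutrophil markers (3 of 7 found in skin, 3 to 5 in fascia) summed to 608 to 824 and 135 to 289 CPM and erythroid markers (2 of 2 found) to 6.83 to 48.7 and 166 to 253. Skin fibroblasts lay mainly in clusters 19 (48.8%), 12 (26.0%) and 15 (17.5%) of a clustering made without the members, and fascia fibroblasts in clusters 3 (65.2%) and 12 (22.1%). The part of these differences in the result was not tested. Cluster 15 took no class name, so fibroblasts taken from the clusters leave out its cells. Without fascia 1, 0 of the 7 calls remained, without skin 1 2 and without fascia 2 4; with fibroblasts taken from those clusters, Oas1a, Irf7 and Irf1 remained.

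In blood endothelial cells, 9 of 30 members were lower in fascia and 0 higher by edgeR, where 12.0% and 7.48% of all genes were. Without a share of all genes beside them, 11 members had an unadjusted p under 0.05, and DESeq2 called 10 lower and 0 higher. The 9 were 3 type I-type, 3 shared and 3 gamma-type members. Ifit3 was at 141 and 76.2, then 41.002 and 56.4 CPM (-1.65 ± 0.39, adjusted p = 0.0313). Ifih1, the RNA sensor MDA5, was at 36.2 and 56.1, then 19.6 and 18.4 CPM (-1.69 ± 0.22, adjusted p = 0.00611). Rsad2 was at 13.7 and 4.01, then 0.668 and 0.753 CPM (-4.18 ± 0.73, adjusted p = 0.0148). None of the 3 overlapped between the tissues, and Rsad2 was near its limit of detection in fascia. Parp14 was at 225 and 159, then 80.8 and 75.6 CPM (-1.77 ± 0.28, adjusted p = 0.0112), Parp9 at 119.8 and 85.8, then 72.5 and 68.2 (-1.03 ± 0.26, adjusted p = 0.0399) and Dtx3l at 59.1 and 48.9, then 39.1 and 36.1 (-0.998 ± 0.22, adjusted p = 0.0283).

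Of the gamma-type members in blood endothelial cells, Gbp2, a guanylate-binding protein, was at 194 and 119, then 49.5 and 68.6 CPM (-1.88 ± 0.36, adjusted p = 0.0183). Irf1 was at 169 and 511, then 143 and 56.6 CPM (-2.17 ± 0.55, adjusted p = 0.039), and its skin libraries lay further from each other than skin 1 did from fascia 1. Tap1, a subunit of the peptide transporter for MHC class I, was at 102 and 71.3, then 50.4 and 59.4 CPM (-1.14 ± 0.28, adjusted p = 0.037). Cxcl10 was at 48.7 and 250.1, then 11.2 and 45.9 CPM and its change of -2.67 ± 0.83 did not pass (adjusted p = 0.0665). Members that are high in this class did not share the lower level. Bst2 was at 472 and 477, then 696 and 590.3 CPM (-0.01 ± 0.24), Ifit2 at 55.8 and 68.9, then 85.9 and 83.2 (0.01 ± 0.17) and Psmb8 at 235 and 253, then 281 and 279 (-0.24 ± 0.20), and these did not pass. Cxcl9 was at 146 and 75.4, then 81.3 and 147 and B2m at 7187 and 6075, then 5289.9 and 5232 CPM, also without passing. The 21 members that did not pass and had UMIs in both tissues ranged in log2 change from -2.67 (Cxcl10) to 0.90 (Cmpk2).

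Under plain CPM scaling, 5 members were lower in fascia blood endothelial cells and 1, Tap2, was higher: the calls of Irf1, Parp9, Dtx3l and Tap1 were lost. Without skin 1, Ifih1 and Parp14 remained of the 9, and with the class taken from a clustering made without the members, Ifih1, Parp14 and Rsad2. Skin cells of this class lay in clusters 18 (56.3%) and 7 (42.5%) and fascia cells in cluster 7 (98.3%). Cluster 18 took no class name, so its cells were left out of the class taken from the clustering. Stress genes summed to 6802 to 11845 CPM in skin and 3006 to 6733 in fascia, and keratinocyte markers (13 found in skin, 9 to 11 in fascia) to 338 to 859 and 15.97 to 20.8. Macrophage markers (3 to 6 of 12 found in skin, 12 in fascia) summed to 16.6 to 20.04 CPM in skin and 109 to 119 in fascia, fibroblast markers (7 to 9 of 11, then 11) to 77.4 to 143 and 204 to 391, mural markers (7 to 8 of 10, then 10) to 72.8 to 159.5 and 172 to 331 and erythroid markers (2 of 2 found) to 5.61 to 11.2 and 109.8 to 1864. The part of these in the result was not tested.

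In mural cells, 11 of 28 members were higher in fascia and 3 lower, where 6.59% and 10.1% of all genes were. The 11 were 7 type I-type and 4 gamma-type members. Of these, 6 (5 type I-type and 1 gamma-type) had 0 UMIs in 1 or both skin libraries and could pass the count filter only with fascia, which leaves 5 with UMIs in both skin libraries (2 type I-type and 3 gamma-type). Psmb8 was at 9.33 and 13.7, then 93.1 and 91.6 CPM (2.49 ± 0.27, adjusted p = 0.000891). Its partner subunit Psmb9 was at 18.7 and 15.95, then 84.2 and 86.4 CPM (1.95 ± 0.25, adjusted p = 0.00169). Tap2, the other transporter subunit, was at 9.33 and 7.60, then 34.4 and 30.1 CPM (1.59 ± 0.33, adjusted p = 0.0149). For these members of antigen presentation the libraries of a tissue lay close together and the tissues far apart, on few UMIs in skin 1. B2m, at 1749 and 1607, then 1539 and 1477 CPM (-0.55 ± 0.21), and Tap1, at 11.7 and 22.03, then 20.3 and 22.8 CPM (-0.22 ± 0.31), did not pass. Ifit2 was at 6.998 and 9.12, then 47.97 and 50.3 CPM (2.12 ± 0.29, adjusted p = 0.00254) and Irf7 at 9.33 and 13.7, then 59.5 and 39.2 (1.58 ± 0.39, adjusted p = 0.0303), without overlap. The skin 1 levels of the 5 called members with UMIs in both skin libraries rest on few UMIs. Mural cells of skin 1 held 72 cells and 428717 UMIs, so 9.33 CPM is 4 UMIs and 6.998 CPM is 3.

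The 6 members without UMIs in 1 or both skin libraries were at or near 0 in skin, where the class held 1745156 UMIs, beside 33512299 in fascia. Gbp2 had 3 UMIs in skin and was at 33.5 and 25.8 CPM in fascia, a ratio of 16.8 with a 95% counting interval of 5.73 to 81.6. Xaf1, a proapoptotic interferon target, had 1 UMI in skin and was at 9.42 and 9.84 CPM in fascia. The ratio was 16.9 with a counting interval of 3.01 to 668. Mx1 and Cmpk2, a mitochondrial nucleotide kinase, had 0 UMIs in skin. All 6 members entered the test only through the tissue where they are high, so their p-values are not given. Against a floor of 3 UMIs over both skin libraries, Mx1 was at least 4.65-fold higher in fascia and Cmpk2 at least 3.33-fold. Mx2, a relative of Mx1, was at 0 and 3.80, then 22.04 and 16.05 CPM (2.33 ± 0.64) and Bst2 at 0 and 4.56, then 28.2 and 19.5 (2.40 ± 0.63), both with 0 UMIs in skin 1. Gbp5 and Oas1a also had 0 UMIs in skin and were at 4.33 and 4.87 and at 3.74 and 1.94 CPM in fascia, without passing.

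The 3 members lower in fascia mural cells were Parp14, Irf1 and Cxcl10. Parp14 was at 103 and 74.4, then 30.3 and 27.8 CPM (-1.95 ± 0.22, adjusted p = 0.000959). Irf1 was at 166 and 392, then 132 and 77.2 CPM (-1.86 ± 0.42, adjusted p = 0.0198), and Cxcl10 at 74.6 and 264, then 26.5 and 16.6 CPM (-3.49 ± 0.49, adjusted p = 0.0027). No fascia library reached a skin library for any of them, and skin 2 was the highest for Irf1 and Cxcl10. Ifi44 was at 9.33 and 14.4, then 30.6 and 30.999 CPM, Stat2 at 6.998 and 12.2, then 21.97 and 20.9 and Parp9 at 32.7 and 33.4, then 39.6 and 38.7, and these did not pass. The 12 members that did not pass and had UMIs in both tissues ranged in log2 change from -1.22 (Cxcl9) to 1.77 (Usp18). The median log2 change was 1.95 over the type I-type members tested (1.72 with the members at 0 UMIs in skin at their bound), 0.69 over the gamma-type ones (0.61) and 0.10 over all genes.

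Skin mural cells came mainly from cluster 10 (86.0%) and fascia mural cells from clusters 4 (64.6%) and 10 (35.2%). Macrophage markers summed to 17.5 to 25.7 CPM in skin (5 of 12 found) and 105 to 119 in fascia mural cells (12 found), beside 27663 to 31909 in fascia macrophages. Blood endothelial markers summed to 294 to 326 CPM in skin (2 to 6 of 9 found) and 311 to 324 in fascia, fibroblast markers (5 to 10 of 11, then 11) to 459.5 to 499 and 2109.9 to 2241, and stress genes to 12598 to 17680.3 and 5745 to 10950.1. Keratinocyte markers (13 of 13 found in skin, 6 to 9 in fascia) summed to 470.2 to 546 CPM in skin and 13.8 to 15.1 in fascia, and erythroid markers (2 of 2 found) to 6.998 to 9.12 and 54.9 to 3341. The part of these in the result was not tested. Without skin 2, 6 of the 14 calls remained, without fascia 1 7, without fascia 2 10 and without skin 1 10.

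**Figure D3:**
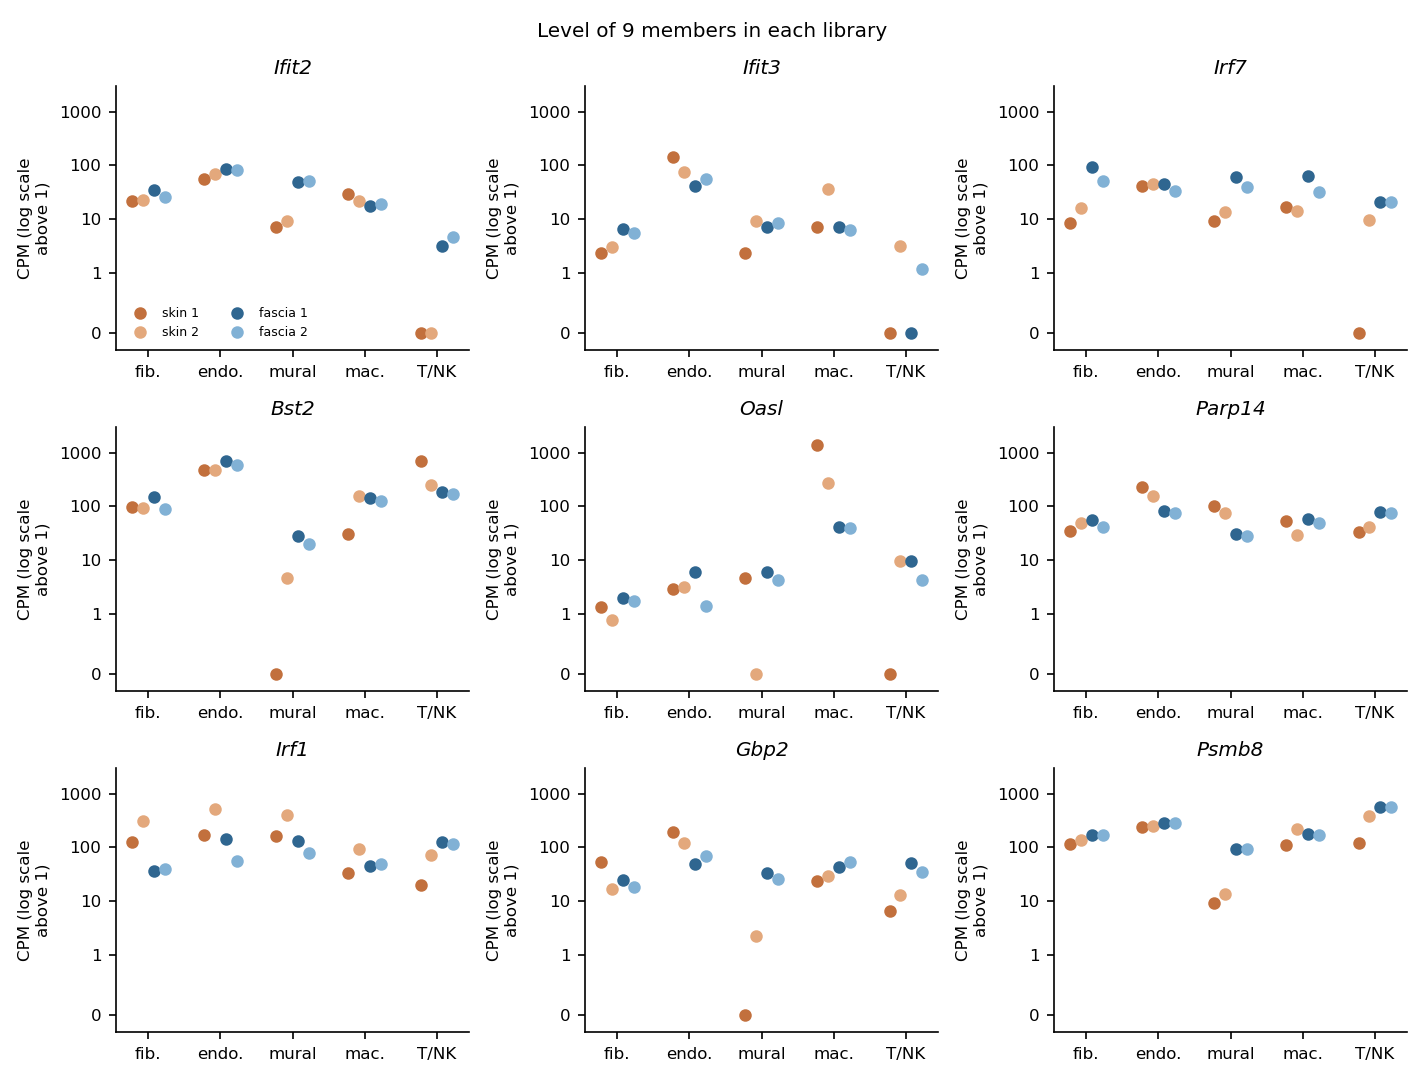
CPM of 9 members in each of the 4 libraries (log scale above 1), in fibroblasts (fib.), blood endothelial cells (endo.), mural cells, macrophages or monocytes (mac.) and lymphocytes (T/NK); each point is 1 library. Psmb8, Ifit2 and Irf7 are higher in both fascia libraries in mural cells, Parp14 is lower in both in endothelial and mural cells, and Oasl stands out in skin macrophages.

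In macrophages or monocytes, 2 of 29 members were lower in fascia and 0 higher by edgeR, where 4.83% and 2.08% of all genes were (6.91% in all). Without a share of all genes beside them, 8 members had an unadjusted p under 0.05, and DESeq2 called 4 lower and 0 higher. Oasl was at 1404 and 267, then 41.3 and 40.4 CPM (-4.72 ± 0.70, adjusted p = 0.00281) and Cxcl10 at 170.4 and 137, then 35.2 and 30.9 (-2.52 ± 0.30, adjusted p = 0.00111). Neither overlapped, but the skin class held only 45 and 26 cells and 555380 UMIs, and skin 1 was far above skin 2 for Oasl. Within cluster 9, which held 53.5% of skin and 56.6% of fascia macrophages, Oasl was at 1641 CPM in skin 1 (in 17 of 32 cells), 139 in skin 2 (2 of 6), and 52.99 and 56.02 in fascia. Within cluster 17, which held 32.4% and 21.4%, it was at 1112 CPM in skin 1 (5 of 8 cells), 450.4 in skin 2 (2 of 15), and 39.7 and 22.7 in fascia. The skin libraries were also the higher ones within these 2 clusters. In cluster 26, by contrast, Oasl had 0 UMIs in the 4 macrophages of skin 2 and was at 0 and 88.6 CPM in fascia.

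The leading members of macrophages did not pass. Bst2 was at 31.2 and 159, then 145 and 127 CPM, Psmb8 at 113 and 224, then 177 and 167 and B2m at 3883 and 4154, then 3333 and 2960.5. Irf7 was at 16.8 and 14.4, then 62.7 and 32.1 CPM, Psmb9 at 91.2 and 64.9, then 123 and 116, Parp14 at 52.8 and 28.9, then 58.1 and 48.6 and Parp9 at 14.4 and 14.4, then 47.5 and 40.2. Stat2 had 3 UMIs in skin and was at 40.2 and 29.96 CPM in fascia, a ratio of 6.57 with a counting interval of 2.24 to 31.9 (adjusted p = 0.0697). Cxcl9 had 0 UMIs in skin and was at 28.9 and 10.8 CPM in fascia, at least 3.81-fold higher by the floor of 3 UMIs, without passing (adjusted p = 0.147). The 26 members that did not pass and had UMIs in both tissues ranged in log2 change from -2.57 (Irf8) to 2.41 (Stat2). The Cxcl10 call was lost without fascia 1, and the Oasl call remained without any 1 library. Stress genes summed to 3811 to 13906 CPM in skin and 1861 to 2522 in fascia, and keratinocyte markers (10 of 13 found in skin, 6 to 7 in fascia) to 350.3 to 404 and 12.2 to 17.03; their part was not tested.

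In T or NK lymphocytes, 1 of 21 members was lower in fascia and 0 higher by edgeR, where 6.77% and 3.63% of all genes were. Without a share of all genes beside them, 8 members had an unadjusted p under 0.05, and DESeq2 called 0. The called member was Bst2, at 712 and 253, then 187 and 171 CPM (-1.36 ± 0.38, adjusted p = 0.0446). The call was lost without skin 1, which held 32 of these cells, without either fascia library, under plain CPM scaling, with at most 10% mitochondrial UMIs, with a looser gate and with Leiden clusters in place of gates. Without skin 2, which leaves 1 skin library, further members were called, Psmb8 and Mx1 among them, without a share of all genes beside them. Members of antigen presentation led this class. Psmb8 was at 119.8 and 387, then 558 and 555 CPM, Psmb9 at 66.6 and 214, then 267 and 273 and B2m at 6563 and 8402, then 6937 and 7125. Psmb8 and Psmb9 were higher in both fascia libraries than in either skin library but did not pass. Mx1 was at 13.3 and 31.99, then 62.6 and 62.1 CPM, Ifi44 at 0 and 22.4, then 24.2 and 33.1, Parp14 at 33.3 and 41.6, then 78.2 and 75.1, Parp9 at 59.9 and 19.2, then 43.4 and 46.99 and Dtx3l at 6.66 and 9.60, then 18.3 and 18.7. The 20 members that did not pass and had UMIs in both tissues ranged in log2 change from -0.13 (B2m) to 2.69 (Stat2). Skin lymphocytes held 462804 UMIs and lay in clusters 11 (64.3%) and 25 (35.7%), and fascia lymphocytes in cluster 11 (99.7%). Cluster 25 took no class name, so its cells were left out of the Leiden class. Keratinocyte markers (11 of 13 found in skin, 8 in fascia) summed to 458 to 1205 CPM in skin and 17.9 to 21.03 in fascia, and macrophage markers (1 to 2 of 12 found in skin, 11 to 12 in fascia) to 6.66 to 15.997 and 289 to 346; their part was not tested.

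The change between tissues was compared directly between classes in 1 fit of edgeR with class-by-tissue terms, chosen after the class results were seen. The mural change lay above the blood endothelial change for 5 of 31 members (Ifit2, Irf7, Gbp2, Psmb8 and Psmb9) and below it for 0, where 4.39% of all genes differed. The difference was 2.87 ± 0.55 log2 for Psmb8 (adjusted p = 0.00753) and 2.08 ± 0.39 for Ifit2 (adjusted p = 0.00721). The fibroblast change lay above the blood endothelial change for 7 (Ifit3, Irf7, Ifih1, Parp14, Parp9, Dtx3l and Oas1a) and below it for Gbp5, where 10.4% of all genes differed. The mural change lay above the fibroblast change for 7 and below it for Parp14, where 9.78% of all genes differed. Against blood endothelial cells, the macrophage change was lower for Oasl alone (2.09% of all genes differed) and the lymphocyte change higher for Gbp2, Irf1 and Parp14 (3.88%). Of these 25 differences, 7 passed without any 1 library: Psmb8 and Gbp2 in mural against blood endothelial cells, Irf7 and Ifih1 in fibroblasts against blood endothelial cells, Parp14 in lymphocytes against blood endothelial cells, and Psmb8 and Psmb9 in mural cells against fibroblasts. Gbp2 went opposite ways in the 2 classes of the vessel: 194 and 119, then 49.5 and 68.6 CPM in blood endothelial cells and 0 and 2.28, then 33.5 and 25.8 in mural cells. The skin mural values rest on 3 UMIs.

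Other classes reached 20 cells in only some libraries and were not tested. Keratinocytes had low type I-type levels, led by Trim25 at 26.7 and 30.98 CPM, Bst2 at 17.1 and 18.02 and Ifih1 at 12.2 and 9.01, with Ifit2 at 0.0605 and 0.934. Their gamma-type members were led by B2m at 1368 and 1329.9 CPM, Irf1 at 91.6 and 133 and Psmb9 at 16.3 and 23.3, and their shared members by Parp14 at 18.5 and 18.2 and Parp9 at 18.2 and 16.7. Dendritic cells (37 in skin 1, 47 and 221 in fascia) had Psmb8 at 257, then 440.4 and 389 CPM, and Irf8, which they need to develop, at 70.2, then 40.3 and 55.9. Their Bst2 was at 63.5, then 95.3 and 128 CPM and their Parp14 at 6.69, then 26.9 and 26.04. Usp18, the protease that removes ISG15 and dampens the type I receptor, was at 60.2, then 30.9 and 34.3 CPM in dendritic cells and at 39.3 CPM in the 59 mast cells of skin 1.

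Neutrophils of fascia 2, 42 cells with 90663 UMIs, had the highest Ifit3, Oas1a, Ifit2 and Irf7 of the gated classes. Ifit3 was at 1555 CPM and was found in 71.4% of the cells. Oas1a was at 419 CPM, Oasl at 386, Ifit2 at 353 and Irf7 at 319.9. Parp9 was at 154 CPM, Stat2 at 110.3, Psmb8 at 298 and B2m at 6872. Mx1, Mx2, Rsad2 and Ifi44 had 0 UMIs in the same cells, which allows up to 33.1 CPM by a count of 3. This is 1 library without a replicate, with 0 and 2 neutrophils gated in skin, so no comparison can be made.

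The balance of the types was summarised as the log2 ratio of summed type I-type CPM to summed gamma-type CPM without B2m. It was -1.26 and -1.50 in skin fibroblasts and 0.25 and -0.46 in fascia fibroblasts. In mural cells it was -2.72 and -3.23, then -0.71 and -0.68, and in blood endothelial cells -0.34 and -0.78, then 0.25 and -0.01. In these 3 classes both fascia libraries lay above both skin libraries, by 1.27, 2.28 and 0.68 log2 on average. In lymphocytes it was 1.15 and -1.23, then -1.80 and -1.74, and in macrophages 1.74 and -0.22, then -0.13 and -0.46, so in these classes the skin libraries lay further from each other than the tissues did. With 2 libraries against 2 a two-sided exact permutation test cannot give a p below 0.333, which fibroblasts, mural cells, blood endothelial cells and lymphocytes gave, and macrophages gave 0.667. Bst2 alone made up 53.7% to 65.1% of the type I-type sum in blood endothelial cells, 93.0% in the lymphocytes of skin 1 and 0% to 10.6% in mural cells. The gamma-type sums of skin mural cells, 308 and 767 CPM, were mostly Irf1 (mean 279) and Cxcl10 (mean 169). Both were lower in fascia mural cells, while Psmb8, Psmb9, Tap2 and Gbp2 were higher. The mural type I-type sums were 46.7 and 82.04, then 265 and 228 CPM, without overlap between the tissues. The mural gamma-type sums in fascia, 434 and 366 CPM, lay between those of the skin libraries. The mural ratio thus follows mostly its type I-type sum and is not a change shared by all members of a type. With the median of log2(CPM + 1) over members in place of sums, the difference was 1.19 in mural cells and 1.11 in blood endothelial cells, and the direction turned in macrophages (0.30) and lymphocytes (0.32). With B2m counted, the fibroblast difference was 0.31 and its tissues overlapped. With Leiden clusters in place of gates, which leave out the skin lymphocytes of cluster 25, the lymphocyte difference moved from -1.73 to -0.39. Without skin 1 the macrophage difference moved from -1.06 to -0.07.

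Whether the signal was class-wide was read at 2000 UMIs per cell, leaving out shallower cells. Each share is the value expected over all draws of 2000 UMIs from every cell. The 15 type I-type members other than Bst2 were looked for in each cell. At least 1 was expected in 9.07% and 11.9%, then 30.6% and 27.6% of mural cells. The shares were 17.8% and 21.5%, then 34.5% and 29.1% in fibroblasts and 10.5% and 18.3%, then 29.2% and 30.8% in lymphocytes. In these 3 classes both fascia libraries lay above both skin libraries. In blood endothelial cells the shares were 49.4% and 48.01%, then 45.5% and 43.9%, both fascia libraries being lower. With Leiden clusters in place of gates, which leave out the skin cells of cluster 18, the mean difference turned from -3.99 to 3.06 percentage points. In macrophages the shares were 50.2% and 32.7%, then 36.7% and 29.1%, where the tissues overlapped. Among keratinocytes of the skin libraries, thinned alike, at least 1 was expected in 9.68% and 10.1%. Without thinning, at least 1 was found in 20.8% and 23.2%, then 74.8% and 67.9% of mural cells and 57.4% and 43.1%, then 84.3% and 82.5% of fibroblasts, where depth differs between libraries.

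Cells with 3 or more different type I-type members were rare at this depth in every class but neutrophils, at most 4.59% in any library. They were expected to make up 0.116% and 0.172%, then 2.88% and 0.897% of fibroblasts, 0.0623% and 0.213%, then 2.08% and 1.25% of mural cells and 3.49% and 3.44%, then 3.32% and 3.30% of blood endothelial cells. In the neutrophils of fascia 2 the expected share was 46.7%, over the 23 cells with enough UMIs. Without thinning, 19 of the 42 neutrophils had 3 or more (45.2%, exact 95% interval 29.8% to 61.3%). Intervals and floors cover counting error only. By the gamma-type members without B2m, cells with 3 or more made up 16.5% and 22.7%, then 13.5% and 12.2% of blood endothelial cells and 2.67% and 14.99%, then 28.9% and 23.01% of lymphocytes. Outside neutrophils, the type I-type members of a class thus seldom met in 1 cell at this depth. How often members placed on cells at random would meet was not computed. The shares therefore do not say whether members occur together more or less than that.

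**Figure D4:**
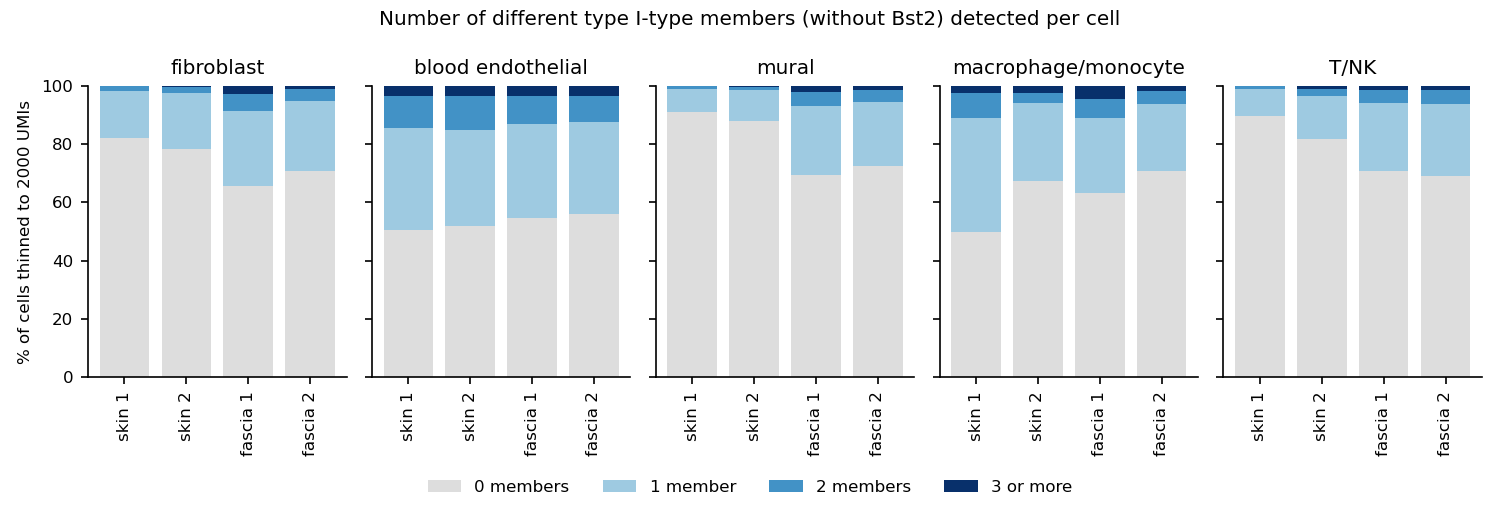
Expected share of cells, each thinned to 2000 UMIs, with 0, 1, 2 or at least 3 different type I-type members (without Bst2), by class and library. The grey part (0 members) is smaller in both fascia libraries than in skin for fibroblasts, mural cells and lymphocytes, and the darkest part (3 or more) is thin in every bar of these classes.

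Spread over cells was also read from the Fano factor, the variance of a gene's thinned UMIs over cells divided by their mean, which is near 1 when UMIs fall on cells at random. Of 325 combinations of member, class and library with at least 20 thinned UMIs, 240 had a Fano factor under 1.5 and 49 one over 2. In 85 (26.1%) it lay above the 90th percentile of all genes in the same cells. Cxcl10 did so in 12 of 12 combinations, Cxcl9 in 9 of 11, Mx2 in 5 of 5, Mx1 in 4 of 7 and Oasl in 3 of 3, beside 1 of 19 for Bst2 and 3 of 11 for Irf7. Irf1 did so in 9 of 18, Ifit2 in 6 of 11 and B2m in 20 of 27. B2m was found in 83.6% or more of the thinned cells in each of its combinations, so a factor above that percentile does not by itself mean few cells.

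Bst2 in blood endothelial cells was found in 55.9% and 51.1%, then 67.97% and 65.2% of thinned cells, with Fano factors of 1.30 and 1.24, then 1.26 and 1.17. In keratinocytes of the same skin libraries it was found in 2.76% and 3.52%. Psmb8 was found in 66.5% and 63.5% of fascia lymphocytes, with Fano factors of 1.08 and 1.17, and in 15.7% and 14.4% of fascia mural cells, with 1.12 and 1.13. Mural cells had the lowest Psmb8 of the fascia classes with at least 20 cells in both libraries, so no class gave a background share from free RNA in fascia. Irf7 was found in 14.02% and 9.20% of fascia fibroblasts, with Fano factors of 1.35 and 1.09, and Ifit2 in 7.09% and 7.63% of fascia mural cells, with 1.92 and 1.35.

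Cxcl10 and Oasl were uneven over cells. In mural cells of skin 2, Cxcl10 was found in 11.4% of thinned cells, and the 10% of cells with most UMIs held 95.8% of them (Fano factor 12.96). In skin fibroblasts it was found in 2.40% and 1.64% of thinned cells (Fano factors 5.11 and 7.49), with up to 146 and 23 UMIs in a cell without thinning, and in keratinocytes in 1.10% and 1.96%. Oasl was found in 23 of 45 macrophages of skin 1 without thinning (51.1%, exact 95% interval 35.8% to 66.3%) and in 43.6% thinned, with up to 145 UMIs in a cell and a Fano factor of 14.04. Thinned alike, it was found in 6.65% and 5.73% of fascia macrophages and in 0.174% of keratinocytes of skin 1. Irf1 was found in 24.2% and 44.8%, then 18.2% and 10.9% of mural cells, with Fano factors of 1.67 and 2.18, then 1.76 and 1.61.

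**Figure D5:**
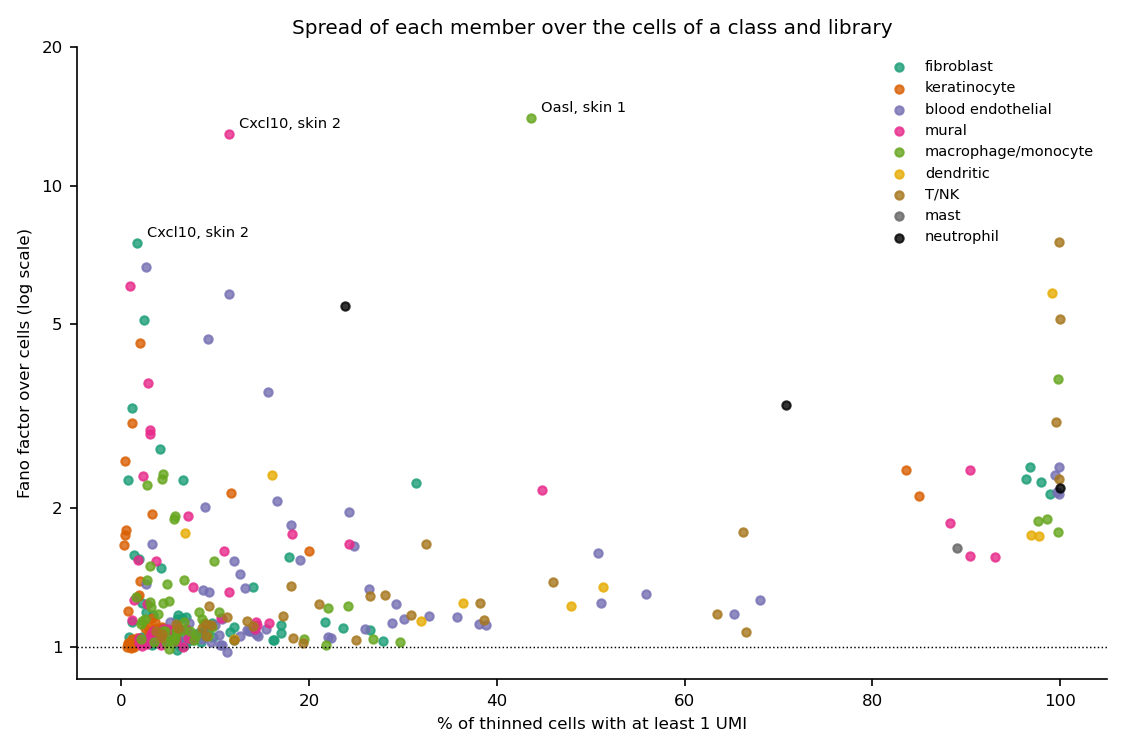
Each point is 1 member in 1 class and library with at least 20 thinned UMIs: the share of thinned cells with the gene against its Fano factor over cells (log scale). Most points lie near 1 (dotted line), Oasl in macrophages of skin 1 (14.04) and Cxcl10 in mural cells of skin 2 (12.96) lie far above, and the points at the far right are B2m.

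Of the interferon genes themselves, Ifnb1, Ifna4 and Ifnl1 had 0 UMIs in all cells. Ifnk, interferon kappa, a type I interferon of keratinocytes, had 1035 and 1827 UMIs in the skin libraries and 2 and 3 in fascia, and was at 15.6 and 29.9 CPM in keratinocytes. Ifne, interferon epsilon of epithelia, had 56 and 29 UMIs in skin and 0 and 1 in fascia. Ifng, which encodes interferon gamma, had 0 and 22 UMIs in skin lymphocytes and 50 and 51 in fascia lymphocytes, at 0 and 70.4, then 22.9 and 12.04 CPM. Its change of -1.51 ± 0.73 did not pass (adjusted p = 0.208), and its tissues overlapped.

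Among 9 matched receptors and kinases, mural cells had both subunits of the type I receptor higher in fascia. Ifnar1 was at 20.99 and 14.4, then 53.6 and 48.5 CPM (1.25 ± 0.27, adjusted p = 0.0185) and Ifnar2 at 18.7 and 21.3, then 53.95 and 46.8 (0.89 ± 0.25, adjusted p = 0.0482). The kinase Jak1 was lower there (-0.94 ± 0.23). Of all genes, 6.59% were higher and 10.1% lower in mural cells. In blood endothelial cells 4 of 8 tested were lower and 0 higher, where 12.0% and 7.48% of all genes were. Ifngr2, of the gamma receptor, was at 66.997 and 61.7, then 25.6 and 25.7 CPM (-1.79 ± 0.21). Ifnlr1, of the lambda receptor, was at 22.1 and 16.03, then 2.003 and 3.60 (-3.20 ± 0.45). The others were the kinases Jak1 (-1.36 ± 0.26) and Jak2 (-2.24 ± 0.20). Fibroblasts had 1 of 8 lower, where 12.5% of all genes were. It was Jak2, at 157 and 223, then 63.1 and 77.4 CPM (-1.69 ± 0.22). Macrophages had 2 of 7 lower, Ifnar2 (-1.53 ± 0.33) and Ifngr2 (-1.15 ± 0.29), where 4.83% of all genes were. Lymphocytes had 0 of 7 called by edgeR, where 10.4% of all genes were, with 2 at an unadjusted p under 0.05. Ifngr1 was at 126 and 291, then 342 and 349 CPM in fibroblasts, 120.3 and 159, then 205 and 159 in blood endothelial cells and 34.99 and 41.02, then 68.3 and 64.2 in mural cells, and Tyk2 at 3.90 and 6.87, then 7.63 and 4.92, 2.08 and 3.21, then 11.8 and 8.36 and 4.67 and 6.08, then 8.44 and 6.11, without passing. Il10rb was at 0.0125 and 0, then 0 and 0 CPM in all cells.

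Of 6 feedback genes, all tested in each class, 4 were lower and 1 higher in fascia in fibroblasts (beside 12.5% and 7.31% of all genes), 3 and 0 in blood endothelial cells (12.0% and 7.48%), 2 and 1 in mural cells (10.1% and 6.59%), 2 and 1 in macrophages (4.83% and 2.08%), and 1 and 1 in lymphocytes (6.77% and 3.63%). Over all genes, too, more were lower than higher in each of these classes. Socs1, which blocks Janus kinases below both receptors, was at 89.7 and 77.04, then 7.45 and 5.89 CPM in fibroblasts (-3.93 ± 0.26, adjusted p = 0.00437). It was at 89.5 and 70.5, then 7.88 and 3.34 CPM in blood endothelial cells (-4.36 ± 0.41, adjusted p = 0.00318) and at 120.0 and 123, then 0.821 and 1.85 in macrophages (-6.78 ± 0.43, adjusted p = 3.17e-05). In mural cells, at 9.33 and 9.88, then 10.2 and 3.48 CPM, and in lymphocytes, at 146 and 259, then 116 and 71.8, it did not pass. Socs3, which chiefly restrains STAT3, was lower in fascia in all 5 classes, from -3.51 in fibroblasts to -1.24 in lymphocytes. Adar, an interferon-induced RNA editing enzyme, was higher in fascia in fibroblasts (0.93 ± 0.21) and mural cells (1.93 ± 0.36). Summed stress genes were higher in skin in fibroblasts, blood endothelial cells, mural cells and macrophages, as given above, and their part in this was not tested.

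Of 9 matched sensors of foreign nucleic acid, 1 was higher and 2 lower in blood endothelial cells, beside 7.48% and 12.0% of all genes. In mural cells 1 was higher and 1 lower, beside 6.59% and 10.1%. By edgeR 0 were called in fibroblasts, macrophages and lymphocytes, beside 19.8%, 6.91% and 10.4% of all genes. In those classes 3, 1 and 1 had an unadjusted p under 0.05. The few calls were not tested against these shares. Cgas, which detects cytosolic DNA, was at 12.9 and 30.5, then 3.61 and 2.09 CPM in blood endothelial cells (-3.31 ± 0.47). Tlr3, which detects double-stranded RNA, was at 0 and 0.760, then 11.8 and 12.2 CPM in mural cells. It had 0 and 1 UMIs in the skin libraries there and could pass the count filter only with fascia, so its change has no firm size.

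Other interferon targets outside the members (38 of 46 matched) were counted in the same way, and the classes were not tested against each other. In fascia 9 of 31 were higher and 1 lower in fibroblasts (beside 7.31% and 12.5% of all genes), 1 and 5 of 31 in blood endothelial cells (7.48% and 12.0%), 9 and 2 of 30 in mural cells (6.59% and 10.1%), 1 and 3 of 35 in macrophages (2.08% and 4.83%) and 2 and 0 of 30 in lymphocytes (3.63% and 6.77%). Cd274, which encodes the checkpoint ligand PD-L1, was at 439 and 309, then 34.9 and 25.5 CPM in blood endothelial cells (-4.11 ± 0.34, adjusted p = 0.00245), and was also lower in mural cells (-1.86 ± 0.40) and macrophages (-2.002 ± 0.42). Ifitm1, a membrane protein that blocks viral entry, was at 14.1 and 10.4, then 169 and 112 CPM in blood endothelial cells (2.99 ± 0.31), where it was higher, and was lower in fibroblasts (-1.46 ± 0.24) and macrophages (-2.31 ± 0.31). In fibroblasts Lgals9, a galectin, was at 0.585 and 0.299, then 22.3 and 11.3 CPM (4.85 ± 0.62), near its limit of detection in skin. Gbp1, a guanylate-binding protein, was at 0 and 0, then 13.7 and 9.94 CPM in mural cells.

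The genes with profiles most like that of Gbp2 over the 27 class and library profiles, by Pearson r of log2(CPM + 1), were Bcl2l1 (0.789), Dtx3l (0.782), RT1-CE1 (0.779), Casp1 (0.761) and Epb41 (0.760). The profiles share libraries and depth, so this is a description.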

How the data were processed

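Droplet 3′ single-cell RNA-seq libraries of skin (2) and subcutaneous fascia (2) were used. The deposited matrices hold whole-number UMI counts per gene and barcode. Cell Ranger 6.0.1 and STAR are named in the submitters' processing notes, while the matrix headers name another Cell Ranger release; the notes list builds of rat and human, and which of them each file used is not given in the sources used here. Of 30560 genes, 7162 carry only an Ensembl identifier and could not be matched by symbol.

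The cell filter asked for 500 genes or more and no more than 20% mitochondrial UMIs. Doublets were scored with Scrublet (scanpy 1.11.5) on exact neighbours. Its own threshold was used in fascia; in skin it called under 0.5% of cells, so the cells scoring highest were taken, at 0.8% per 1000 cells. In all 445 and 2163 skin and 217 and 214 fascia cells were removed as doublets. A cell was put in the class with the highest mean log marker score (scaled to the 75th percentile of the class), with at least 3 markers detected and a second score at most 0.5 of the first; 128 of 141 markers matched. UMIs were summed per class and library and tested with edgeR 4.0.16 (quasi-likelihood, TMM, filterByExpr, R 4.3.3) across all genes, with Benjamini-Hochberg adjustment. The clustering used 2000 variable genes without the members, 30 principal components, an unweighted graph of 15 exact neighbours and Leiden resolution 1.0. It gave 30 clusters, and 21 took the name of a class whose gated cells made up at least 50% of all their cells. Clusters 6, 15, 18 and 25 took no name. The gated macrophages, skin fibroblasts, skin blood endothelial cells and skin lymphocytes in them were therefore left out of the Leiden classes. Shares of cells and Fano factors at 2000 UMIs are expected values over all draws from each cell (hypergeometric), so they carry no sampling noise of a single draw.

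Members, marker lists, pathway lists and tests were chosen with earlier results of these data known, so no list is independent support. A member's libraries are given one by one where it passed the test in a class or was among the 3 highest of its type there; receptors are always named, and of other lists at most 4 called genes. Alternatives were DESeq2 1.42.0, RLE or plain CPM scaling, no count filter, other cell filters, Leiden classes, a looser gate and leaving out each library. Plain CPM scaling, the looser gate, the crossed pairing and the comparison of changes between classes, with leave-one-out values of the ratio and share, were added after seeing the data. The tests were checked on simulated counts. Total UMIs per library limit precision, and 41.8% of kept cells in skin 2 had under 2000 UMIs, beside 2.15% to 3.91% in the others.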

Additional observations from a re-analysis of the deposited data

Results flagged for a closer look

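Each result here is a member whose fascia-against-skin change differed between 2 cell classes, by a test of that difference itself (edgeR, class-by-tissue terms, adjusted p under 0.05). Values are log2 differences of the change.

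Against blood endothelial cells, the mural change was higher by 2.08 for Ifit2, 2.24 for Irf7, 5.27 for Gbp2, 2.87 for Psmb8 and 2.07 for Psmb9. The fibroblast change was higher by 2.48 for Ifit3, 2.78 for Irf7, 2.09 for Ifih1, 1.57 for Parp14, 1.53 for Parp9, 1.29 for Dtx3l and 3.28 for Oas1a, and the difference was -2.42 for Gbp5. The macrophage change differed by -4.54 for Oasl. The lymphocyte change was higher by 3.62 for Gbp2, 3.46 for Irf1 and 2.64 for Parp14.

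Against fibroblasts, the mural change was higher by 2.01 for Ifit2, 4.43 for Gbp2, 1.51 for Tap2, 2.55 for Psmb8 and 2.22 for Psmb9, and the difference was -1.82 for Parp14. The fitted differences of 10.33 for Gbp5 and 9.09 for Cmpk2 rest on 0 UMIs in skin mural cells, so their size is no bound. The mural differences for Gbp2 rest on 3 UMIs in skin mural cells. The fibroblast difference for Oas1a rests on few UMIs in skin fibroblasts.

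Of these 25 calls, 11 were lost without skin 1, 6 without skin 2, 10 without fascia 1 and 7 without fascia 2, and 7 held without any 1 library. Against blood endothelial cells, the calls lost were, for mural cells, Ifit2 (without skin 2 or either fascia library), Irf7 (without either skin library or fascia 1) and Psmb9 (without fascia 2). For fibroblasts they were Ifit3, Parp9 and Oas1a (without skin 1 or fascia 1), Gbp5 (without skin 1 or fascia 2), Parp14 (without fascia 1) and Dtx3l (without skin 1 or either fascia library). Oasl in macrophages and Gbp2 in lymphocytes were lost without skin 1, and Irf1 in lymphocytes without either skin library. For mural cells against fibroblasts, Gbp2 and Gbp5 were lost without skin 1, Ifit2 without skin 2 or fascia 2, Parp14 without fascia 1, and Cmpk2 and Tap2 without skin 2 or either fascia library.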

How the results depend on the processing

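Of the member calls recomputed under each setting, DESeq2 kept 84 and lost 5, RLE scaling kept 88 and lost 1, plain CPM scaling kept 81 and lost 8, and Leiden clusters kept 55 and lost 15. Leaving out 1 library lost 24 to 31 calls, and leaves 1 library in an arm that is assumed to vary like the others. The 1 called member whose direction turned was Gbp5 in lymphocytes against fibroblasts, at -0.0127 on the skin libraries alone; directions of members not called turned under plain CPM scaling, as given with the classes. The cause of each move below was not tested.

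In fibroblasts the 7 calls became 12 with no count filter and 3 with Leiden clusters. In blood endothelial cells the 9 became 3 with Leiden clusters, and in macrophages the 2 became 4 by DESeq2 and 5 with no filter. In lymphocytes the 1 call became 0 by DESeq2, by plain CPM, at 10% mitochondrial UMIs and with the looser gate, and 4 with no filter. Without 1 library the calls ranged from 12 to 15 in all cells (19 with every library), 0 to 8 for fibroblasts, 0 to 11 for lymphocytes, 1 to 3 for macrophages, 2 to 9 for the endothelial class and 7 to 12 for mural cells (14). Against fibroblasts, on the fascia libraries alone, the calls rose from 7 to 17 in mural cells, 6 to 17 in macrophages and 11 to 21 in lymphocytes. The share of all genes in those fits was not taken. Without 1 library they ranged from 6 to 13 in lymphocytes, 2 to 7 in macrophages, 5 to 9 in mural cells and 9 to 13 in the endothelial class (13).

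For the difference of change against blood endothelial cells, the ranges without 1 library were 3 to 4 calls in mural cells (5), 3 to 8 in fibroblasts (8), 0 to 4 in macrophages (1) and 1 to 7 in lymphocytes (3), and 5 to 7 for mural cells against fibroblasts (8). The macrophage difference had 3 calls with RLE and 5 with the looser gate.

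The type I to gamma-type difference (log2) was 0.31 with B2m kept in fibroblasts; by medians it was 1.19 in mural cells, 1.11 in the endothelial class, 0.30 in macrophages and 0.32 in lymphocytes; and with Leiden clusters it was -0.39 in lymphocytes. Without 1 library it ranged from 2.03 to 2.53 in mural cells, 0.92 to 1.62 in fibroblasts, 0.46 to 0.90 in the endothelial class, -2.04 to -0.07 in macrophages, -2.91 to -0.54 in lymphocytes and 0.70 to 1.22 in all cells. The difference in the share of cells with a type I-type member (percentage points) moved from 12.2 to 7.79 and 18.1 in fibroblasts at 1000 and 5000 UMIs, from 18.6 to 11.2 and 29.8 in mural cells, and from -3.99 to -2.81 and -0.965 in blood endothelial cells (3.06 with Leiden clusters). In lymphocytes it moved from 15.6 to 9.76 at 1000 UMIs. At 5000 UMIs macrophages and lymphocytes had too few cells for a value. Without 1 library it ranged from 17.1 to 20.2 in mural cells, 9.47 to 14.8 in fibroblasts, -4.79 to -3.19 in the endothelial class, -17.4 to 0.169 in macrophages and 11.7 to 19.5 in lymphocytes.

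The labels do not say whether the replicate numbers pair the libraries. Over genes, same-numbered deviations correlated at -0.203 (blood endothelial) to -0.004 (macrophages). With 2 libraries in each tissue this cannot tell paired from unpaired libraries. With the replicate number as a block, 17 members were called in all cells, 14 in mural cells, 10 in the endothelial class (9 under the crossed pairing), 8 in fibroblasts, 3 in macrophages and 1 in lymphocytes. Low counts leave Isg15 and Irf9 without a comparison in every class, and depth limits all members in skin macrophages and lymphocytes, which held 555380 and 462804 UMIs. Depth also limits them in the mural cells of skin 1, which held 428717 UMIs.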
